A study of Homo sapiens with 27 samples.

Results

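Transposon insertions close to the 2 coordinates that bound coding genes were read from 27 insertion libraries of HCT116, a long-established line of human colorectal carcinoma cells. A position was counted when it lay on an autosome and within 1000 bases of the start or end coordinate of a gene that RefSeq lists as protein-coding on GRCh38. Of 2884349 distinct autosomal positions, 107414 met this rule, which is 3.72%, and the whole series held 2955325 positions. Each was assigned to its nearest gene coordinate. RefSeq's promoter table gave the strand of 15100 of the 19122 autosomal coding genes, and for these the coordinate could be read as a transcription start or a gene end. By this split 41034 positions lay at starts, 46185 at gene ends and 20195 at genes of unlisted strand.

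All cells received a self-reporting transposon, a transposon whose own promoter transcribes out through its end into the neighbouring DNA, and grew under selection with 3 µg/ml puromycin for 2 weeks. The 9 groups hold 3 libraries each. The wild-type transposon was combined with piggyBac transposase (WT_PB), with hyperactive piggyBac (WT_hyPB), with re-engineered piggyBac (WT_rePB) or with a form both re-engineered and hyperactive (WT_rehyPB). Cells with a short transposon had wild-type piggyBac (short_PB) or hyperactive piggyBac (short_hyPB). Cells with a symmetric transposon had the re-engineered transposase (sym_rePB) or its hyperactive form (sym_rehyPB). The last group used piggyBat, a related system from a bat, with its wild-type transposon (WT_PBat), so that transposon and transposase differ together from WT_PB. The labels do not describe the re-engineered proteins or the short and symmetric elements further. No group lacks a transposon or a transposase, and whether replicates came from separate cultures is not stated, so the p-values below measure the spread between these libraries, which may be technical.

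PiggyBac elements move by cut and paste. The transposase excises the element and joins it to a TTAA, which is duplicated on both sides of the insertion, and piggyBac has long been known to insert often near transcription starts and in open chromatin. In a self-reporting library the insertion is found through polyadenylated RNA that begins inside the element, so the strand of a peak is the direction in which transcription leaves the element. A peak on the strand of the nearby gene is called sense here, and a peak on the other strand antisense. Shares therefore describe insertions that were read through RNA and passed the peak calling. RNA levels of genes were not measured, so the cell line's markers could not be checked.

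The 4 groups with the wild-type piggyBac transposon had library totals of 8118085 to 12051190 and between 16978 and 26959 positions near gene ends or starts per library. The remaining 5 groups had totals of 142666 to 256608 and between 378 and 1288 such positions per library. Depth and transposon type therefore cannot be told apart by these totals. WT_hyPB replicates 1 and 2 shared 78.6% and 78.4% of these positions with each other, and WT_PBat replicates 1 and 3 shared 60.1% and 50.7%, against at most 48.3% for all other pairs within groups. Averaging each of these linked pairs into 1 library kept the direction and the side of the threshold in the share tests and gene tests that use these groups. The measures of outward and toward-end direction below were not run that way. Heights of peaks rest on PCR reads without molecular identifiers.

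The positions found in the most groups show what a recurrent target looks like. The 6 sequences below are 30 bases of RefSeq promoter sequence on GRCh38.p14, written on the strand of the gene, with the TTAA target in capitals. Candidates were positions upstream of a start, not directly at it, with all 30 bases inside a promoter window of the table. Positions in the part of a window inside the gene were left out. The 6 shown were present in the most groups and libraries among these candidates.
SF3B1: caaagttactcacTTAAggaccttacggct
TOMM7: ctgaagatgcgttTTAAaaatgggtaacag
CUL5: caatgcacctcccTTAAcaccgagtccggg
PCOLCE2: accataatcgcctTTAAaagtgcctccgcc
MORC3: actgtaccctgctTTAAccagtcaggcaat
CSNK1E: tcccatttgctgtTTAAggaaacccaagct

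The SF3B1 site, at chr2:197435244-197435273 on the minus strand, lies 164 bases upstream of the start of the gene for a splicing factor subunit, and it was hit in 24 libraries and all 9 groups. The TOMM7 site (chr7:22823009-22823038, minus strand), 173 bases upstream of a gene for a mitochondrial import subunit, was hit in 19 libraries. The CUL5 site (chr11:108008755-108008784, plus strand), 130 bases upstream of a gene for a ubiquitin ligase scaffold, was hit in 17 libraries. The site 25 bases upstream of PCOLCE2 (chr3:142889095-142889124, minus strand) was hit in 22 libraries and 8 groups. The site 122 bases upstream of MORC3 (chr21:36320062-36320091, plus strand) was hit in 21 libraries, and the site 118 bases upstream of CSNK1E, a casein kinase gene (chr22:38318189-38318218, minus strand), in 20. The direction of these insertions was uneven. At MORC3 none of 21 peaks was sense, and at SF3B1 7 of 31 were sense.

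Outside the promoter windows the most recurrent positions were reached in still more libraries. A position 837 bases inside ARID5B, a gene for a chromatin regulator, was present in 27 of 27 libraries, with 25 sense and 19 antisense peaks. A position 580 bases upstream of CHST15, a sulfotransferase gene, and another 395 bases upstream of ENSA, a phosphatase regulator gene, were each present in 26 libraries. The position 440 bases inside CHAC2 was present in 25 libraries and mostly sense, with 25 of 29 peaks. At gene ends the leaders were a position 908 bases beyond VMP1 and another 813 bases before the end of HOXA10, each in 24 libraries. The remaining 4 of the first 10, at POFUT3, BPNT2, GAS2L1 and DDTL, belong to genes of unlisted strand. Such sites were rare. Of all 107414 positions, 48 occurred in all 9 groups, and 55.1% occurred in 1 group only. Of those 48, 31 lay at starts and 6 at gene ends. Gene ends hold more distinct positions when all libraries are pooled, but a position that recurs counts once there. Within libraries starts held more positions than gene ends in every group, with mean ratios from 1.15 in WT_rePB to 3.37 in short_hyPB.

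The first question was how much of each library lay at transcription starts. In WT_PB the start share was 3.05%, 3.31% and 3.12% of autosomal positions, with a mean of 3.16% ± 0.14 (SD, n = 3). The 3 WT_hyPB libraries lay at 3.25% ± 0.08 (SD, n = 3) and overlapped with WT_PB. Both re-engineered groups were lower. WT_rePB stood at 1.90% ± 0.02 and WT_rehyPB at 2.45% ± 0.05 (SD, n = 3 for both). The short and symmetric transposon groups all lay above the deep groups, at 6.25% ± 0.15 in short_PB, 8.50% ± 0.17 in short_hyPB, 7.85% ± 0.68 in sym_rePB and 8.55% ± 0.17 in sym_rehyPB (SD, n = 3 each). WT_PBat gave 7.29%, 6.54% and 6.56%.

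Averaged over the 2 pairs of groups that differ only in re-engineering, the start share fell by 1.03 points with re-engineered transposase, and both pairs were without overlap (exact permutation, two-sided, Benjamini-Hochberg adjusted p = 0.0135 over 30 tests). Hyperactive transposase raised it by 0.90 points over 4 pairs, of which 3 did not overlap (exact permutation, adjusted p = 0.0030). The short transposon came out 4.18 points and the symmetric transposon 6.02 points above the wild-type transposon with the same transposase, with no overlap in either pair of each (exact permutation, adjusted p = 0.0135 for both). The smallest unadjusted p that a comparison of 2 pairs can give is 0.005. WT_PBat lay 3.64 points above WT_PB and 0.54 above short_PB, and the groups did not overlap, but 3 libraries against 3 cannot give an exact permutation p below 0.1 (adjusted p = 0.136 for both). With libraries thinned to the smallest total, the difference to WT_PB turned to −1.14 points, at 6.96% ± 0.38 in WT_PBat against 8.10% ± 2.02 in WT_PB (SD, n = 3 each). With a window of 500 bases the difference to short_PB turned to −0.17 points.

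Depth changed along with the transposon in the short, symmetric and WT_PBat against WT_PB comparisons. When libraries were thinned to the smallest total, each thinned WT_PB library kept an average of 756 autosomal positions against 8281 in short_PB. The start share was then 8.39% ± 0.57 in WT_PB and 6.32% ± 0.13 in short_PB (SD, n = 3 each), and the average short-transposon difference turned to −1.24 points (exact permutation, adjusted p = 0.0545). Thinning keeps the tallest peaks, and the mean start share rose with peak height in the 4 deep groups, in short_PB and in WT_PBat. In short_hyPB and the symmetric groups it did not rise throughout. In WT_PB it was 2.64% ± 0.26 among peaks of height 5 to 6 and 7.07% ± 0.30 at a height of 50 and above (SD, n = 3 each). At a height of 5 to 6, short_PB was at 5.58% ± 0.17, short_hyPB at 7.81% ± 0.53 and WT_hyPB at 2.56% ± 0.13 (SD, n = 3 each). Heights show no sign of scaling to depth, so equal heights are not matched for depth, here or below. Away from gene coordinates the median height averaged 11.3 in WT_PB and 7 in short_PB. The symmetric comparison kept its direction after thinning, with 7.93% ± 0.87 in sym_rePB and 3.92% ± 0.29 in WT_rePB (SD, n = 3 each). Thinned WT_rePB libraries kept an average of 680 autosomal positions, 26.7 of them at starts, against 2566 autosomal positions in sym_rePB.

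**Figure D1:**
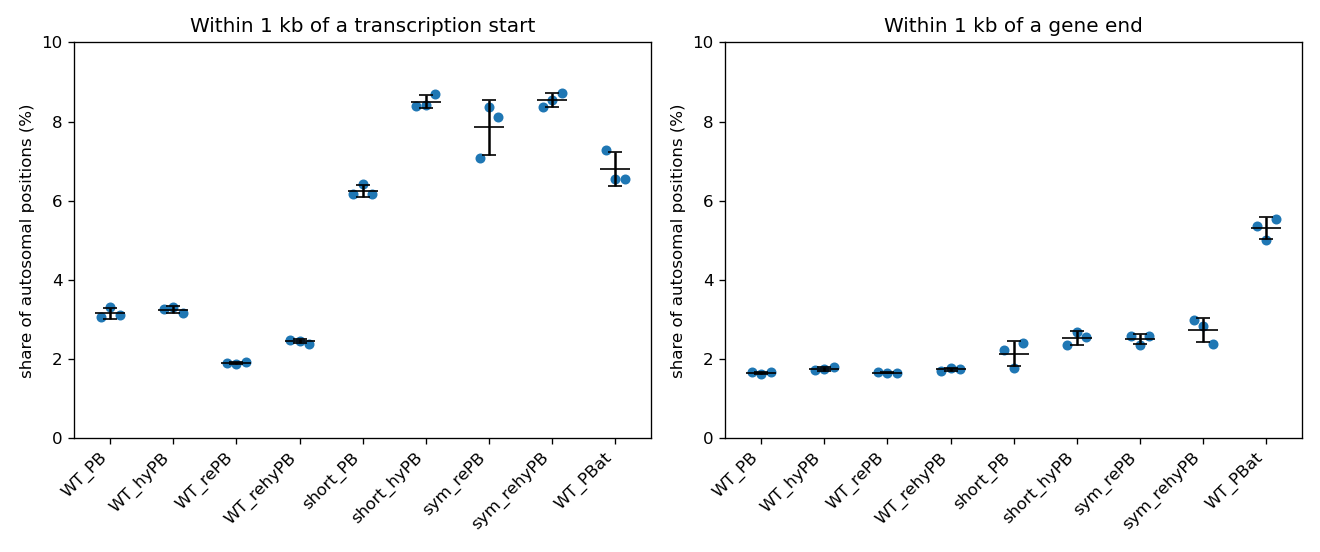
Share of autosomal positions within 1 kb of a transcription start (left) and of a gene end (right), in percent. Points are libraries, horizontal lines are group means and bars are 1 SD (n = 3 per group). At starts the short and symmetric groups reach 6.25% to 8.55% on average, and at gene ends WT_PBat stands alone at 5.31%.

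Gene ends gave another order of groups. The gene end share was 1.66%, 1.61% and 1.67% in WT_PB and 5.37%, 5.00% and 5.55% in WT_PBat, with a difference of 3.66 points and no overlap (exact permutation p = 0.1, adjusted p = 0.136). WT_PBat also lay 3.17 points above short_PB, whose libraries were at 2.23%, 1.78% and 2.40% (exact permutation p = 0.1, adjusted p = 0.136). Thinned to the total of 142666, WT_PBat was at 5.39% ± 0.37, short_PB at 2.25% ± 0.42 and WT_PB at 2.46% ± 0.67 (SD, n = 3 each), the last from 8.33 gene end positions per library on average. Among peaks of height 5 to 6 WT_PBat had 4.81% ± 0.13 and WT_PB 1.55% ± 0.03 (SD, n = 3 each).

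The gene end share of WT_PB and WT_rePB averaged 1.65% in both, and the re-engineering difference over both pairs, −0.0064 points, did not pass the test (exact permutation, adjusted p = 0.798). The single pair differences were −0.00098 and −0.012 points, and both pairs overlapped. Hyperactive transposase raised the gene end share by 0.21 points (exact permutation, adjusted p = 0.0135). Both deep pairs were without overlap and both shallow pairs overlapped. The call was lost with thinned libraries, at 0.19 points (exact permutation, adjusted p = 0.5), where the deep pairs turned to −0.13 and −0.16 points, and with peaks of a height of at least 10, at 0.31 points (exact permutation, adjusted p = 0.130). The short transposon raised it by 0.63 points and the symmetric transposon by 0.92 points (exact permutation, adjusted p = 0.0135 for both), which thinned to 0.47 and 0.048 points and no longer passed the test.

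The number of positions at starts for each position at a gene end sums up these orders. Among the deep groups its mean was 1.92 for WT_PB and 1.85 for WT_hyPB, and it was lower for WT_rePB (1.15) and WT_rehyPB (1.41). In the short and symmetric groups it was between 2.99 and 3.37, and in WT_PBat it was 1.28. WT_PBat thus had a ratio between those of WT_rePB and WT_rehyPB, but with shares at both coordinates above theirs.

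Distance profiles show where within the window the positions lay. Around starts, density per Mb of sequence and per 100000 positions was highest 750 to 500 bases upstream in WT_PB, at 170 ± 7.98, and in the first 250 bases inside the gene it was 62.3 ± 3.08 (SD, n = 3 each). In all 9 groups the least dense bin within 1250 bases of the start lay in the first 500 bases of the gene. Further inside, density rose again, and WT_PBat reached 342 ± 23.9 (SD, n = 3) at 1000 to 1250 bases, near its upstream maximum of 392 ± 52.2 at 500 to 250 bases upstream. Short_hyPB was at 224 ± 16.7 in that downstream bin against 499.9 ± 26.3 upstream. Positions upstream of the start made up 59.2% ± 0.25 of start positions in WT_PB and 67.5% ± 0.69 in sym_rehyPB (SD, n = 3 each).

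**Figure D2:**
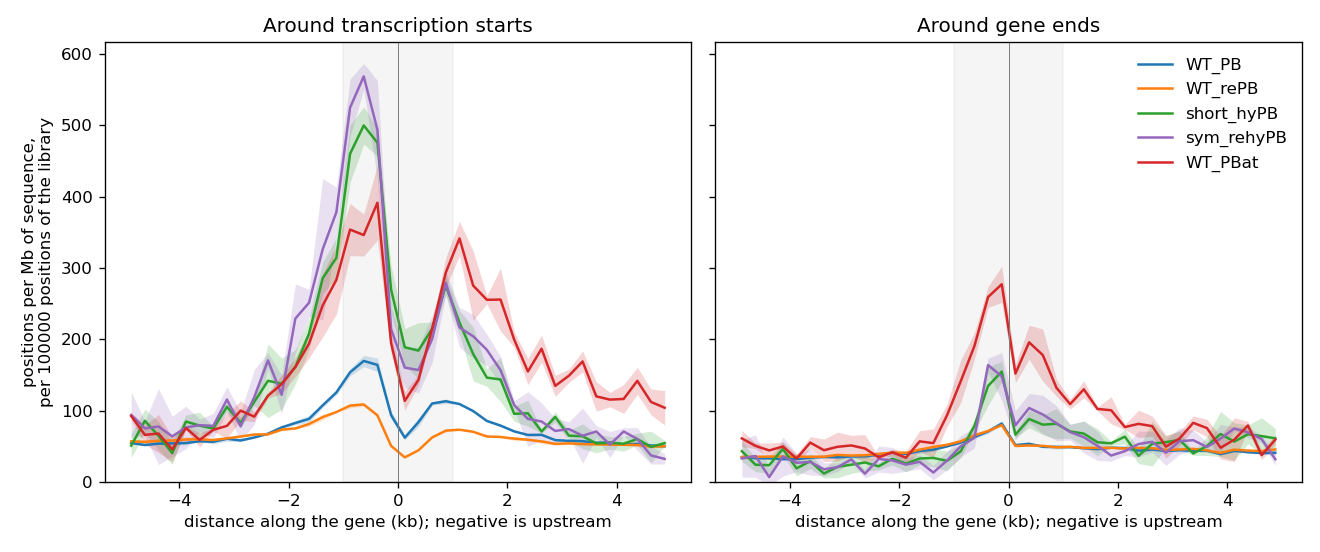
Density of insertion positions along genes around transcription starts (left) and gene ends (right) in bins of 250 bases, per Mb of sequence and per 100000 positions of a library. Lines are means of 3 libraries of 5 groups, coloured bands reach 1 SD to each side of the mean, and grey marks the 1 kb window. Every group shown dips just inside the start, and WT_PBat is highest at gene ends, at 277 in the last 250 bases of the gene.

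At gene ends the densest bin was the last 250 bases of the gene in WT_PB, at 82.1 ± 1.23, and in WT_PBat, at 277 ± 25.4 (SD, n = 3 each). Density dropped to 51.9 ± 1.42 in WT_PB and 152 ± 12.7 in WT_PBat in the first 250 bases beyond the end. Against the flanks 4000 to 5000 bases away, gene ends were 1.58-fold denser in WT_PB ± 0.0022 and 3.46-fold denser in WT_PBat ± 0.18 (SD, n = 3 each). At starts the same ratio was 2.25 ± 0.12 in WT_PB, 2.76 ± 0.32 in WT_PBat and 5.60 ± 0.35 in short_hyPB. In WT_rePB it was 1.66 ± 0.0087 upstream of starts and 0.99 ± 0.0050 downstream (SD, n = 3 each). The first kilobase downstream was thus about as dense as the average of the flanks on both sides.

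Orientation was uneven at both coordinates. At starts less than 50% of all peaks were sense in each of the 27 libraries, with 40.5% ± 0.32 in WT_PB, 35.2% ± 2.96 in short_PB and 38.3% ± 0.11 in WT_PBat (SD, n = 3 each). The short transposon lowered the sense share at starts by 5.15 points with no overlap in either pair (exact permutation, adjusted p = 0.0135), a difference that reversed to 13.4 points after thinning, when WT_PB was at 21.0% ± 5.48 (SD, n = 3). The sense share in the deep groups moved with height. In WT_PB it was 48.0% ± 1.18 at a height of 5 to 6 and 27.8% ± 0.46 at 50 and above, and at 5 to 6 short_PB was at 38.2% ± 4.14 (SD, n = 3 each). Hyperactive transposase (−0.080 points, exact permutation, adjusted p = 0.953), re-engineering (0.21 points, adjusted p = 0.560) and the symmetric transposon (−3.88 points, adjusted p = 0.143) did not pass the test. Sym_rePB replicate 3 bears on the last, since without it the difference was −6.06 points and passed (exact permutation, adjusted p = 0.0125).

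At gene ends the mean sense share was above 50% in all 9 groups, although the lowest libraries of short_PB, short_hyPB and sym_rehyPB, at 48.9%, 48.9% and 49.6%, lay below 50%. The sense share was 52.9% ± 0.57 in WT_PB and 54.4% ± 0.36 in WT_rePB, and it was 60.1%, 60.6% and 62.9% in WT_PBat. Re-engineering raised it by 1.17 points (exact permutation, adjusted p = 0.0231), with 1 of 2 pairs free of overlap, and without WT_rePB replicate 1 the adjusted p was 0.0577. WT_PBat exceeded WT_PB by 8.23 points and short_PB by 8.26 points with no overlap (exact permutation p = 0.1, adjusted p = 0.136 for both). The hyperactive (−0.72 points), short (0.19) and symmetric (2.09) differences were not past the threshold (exact permutation, adjusted p = 0.635, 0.936 and 0.294).

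Splitting each window at its coordinate showed a clearer pattern. In WT_PBat, 23.7% ± 0.37 of peaks upstream of starts and 60.8% ± 1.29 of those downstream were sense, so on both sides most transcripts left the element away from the start. At gene ends of WT_PBat 71.2% ± 1.51 were sense before the end and 47.4% ± 3.53 beyond it (SD, n = 3 each). In WT_PB the same 4 values were 38.0% ± 0.38, 44.3% ± 1.00, 58.7% ± 0.56 and 45.2% ± 1.11 (SD, n = 3 each). Upstream of starts the 3 WT_PBat libraries, at 23.5% to 24.1%, lay below all 12 deep libraries, whose lowest was at 36.9%. The shallow piggyBac groups were closer, with means of 27.6% in short_PB, 28.5% in short_hyPB, 30.2% in sym_rePB and 32.5% in sym_rehyPB and a lowest library of 24.8% in short_PB. Downstream of starts WT_PBat was the only group whose mean exceeded 50%.

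**Figure D3:**
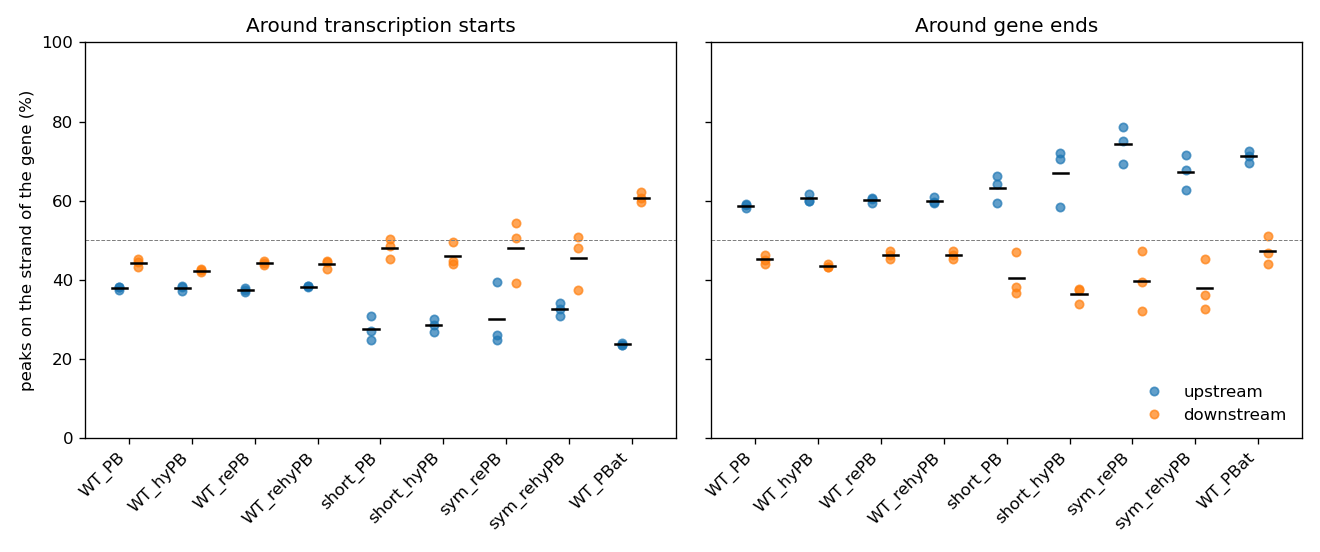
Percent of peaks on the strand of the gene, upstream (blue) and downstream (orange) of transcription starts (left) and gene ends (right). Points are libraries, bars are means of 3 libraries and the dashed line marks 50%. Upstream of starts all libraries are below 50%, and at starts WT_PBat has the widest gap between the sides, at 23.7% and 60.8%.

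A pair of measures chosen after this split was seen joins side and direction. The outward share at starts counts peaks that point away from the start, and it was 54.8% ± 0.58 in WT_PB, 63.3% ± 1.33 in short_PB, 62.5% ± 4.70 in sym_rePB and 70.2% ± 0.76 in WT_PBat (SD, n = 3 each). It was 8.41 points higher with the short and 6.32 points higher with the symmetric transposon, with no overlap in any pair (exact permutation, adjusted p = 0.015 for both, over 12 tests). WT_PBat exceeded WT_PB by 15.3 points and short_PB by 6.82 points without overlap (exact permutation p = 0.1, adjusted p = 0.158). The outward share also depends on how many peaks lie upstream, where outward peaks were more frequent. The mean upstream part of start positions rose in every short and symmetric pair, from 60.8% in WT_rePB to 65.9% in sym_rePB. Mean sense shares also moved outward, there from 37.4% to 30.2% upstream and from 44.2% to 48.1% downstream. On average, most downstream peaks of the piggyBac groups still pointed toward the start. The parts of position and direction were not separated. At gene ends the share of peaks that point toward the end rose by 5.55 points with the short and 8.83 points with the symmetric transposon (exact permutation, adjusted p = 0.015 for both). There WT_PBat exceeded WT_PB by 6.19 points without overlap (exact permutation p = 0.1, adjusted p = 0.158) and differed from short_PB by 1.62 points with overlap (exact permutation, adjusted p = 0.436). Hyperactive transposase and re-engineering passed in neither measure (exact permutation, adjusted p from 0.158 to 0.532). These shares were not thinned, and depth differs between these groups.

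Promoter sequence could be read for 13149 windows of 300 bases, which run from 250 bases before to 50 bases after the start. TTAA, a palindrome and thus the same on both strands, was present in 39.9% of them, which held 8681 copies. In each group between 94.1% and 99.2% of the insertion positions inside these windows, on average, fell on the first base of a TTAA. TTAA was scarcer where promoters were rich in G and C. It occurred in 69.8% of windows in the windows of lowest GC content, in 34.0% of those of middle and in 14.4% of those of highest content, with the classes split at GC contents of 57.7% and 67.7%.

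Hits per available TTAA did not follow that order. In WT_PB 10.2% ± 0.58 of copies in low-GC windows were hit per library, 24.1% ± 1.42 in middle-GC windows and 21.6% ± 1.07 in high-GC windows (SD, n = 3 each). In WT_rePB the values were 8.31% ± 0.28, 15.1% ± 0.57 and 12.97% ± 0.77, and in WT_PBat 0.36% ± 0.076, 1.31% ± 0.37 and 0.92% ± 0.53 (SD, n = 3 each). The middle class had the highest mean in all 9 groups. In WT_PB its lowest library, at 22.5%, lay close to the highest library of the high class, at 22.4%. Over all libraries 37.1% of the copies were hit at least once.

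The bases next to the target also went with hits in part of the groups. Copies with a T before and an A after the TTAA were compared with copies that have neither. In WT_hyPB 18.5% ± 0.28 of the former and 11.7% ± 0.59 of the latter were hit per library, and in WT_rehyPB the values were 10.97% ± 1.33 and 6.52% ± 0.62 (SD, n = 3 each). WT_PB differed less, at 14.8% ± 1.78 and 12.6% ± 0.48, and WT_PBat went the other way, at 0.37% ± 0.040 and 0.66% ± 0.11 (SD, n = 3 each). No test was run on these values.

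Positions near genes recurred between replicates more than other positions did. In WT_PB 39.4% ± 2.63 of the positions near gene coordinates were shared with another replicate, against 20.1% ± 1.47 of the remaining autosomal positions (SD, n = 3 each, per pair of replicates with linked pairs left out). In WT_PBat it was 15.4% ± 2.17 against 8.39% ± 0.76, and in sym_rePB 24.1% ± 1.01 against 20.5% ± 1.97 (SD, n = 3 each). Each of the 27 libraries showed this direction. The median peak height was 14.3 against 11.3 in WT_PB as a mean of 3 libraries and 8 against 7 in WT_PBat, but it was 6 against 6 in sym_rePB and in sym_rehyPB.

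The genes with the most positions differed between the deep and the shallow groups. PALLD, which encodes an actin-binding cytoskeletal protein, had 43 positions over the 3 WT_PB libraries (17, 12 and 14), nearly all at its start. SFR1, a gene for a recombination cofactor, had 12, 14 and 16, of which 33 lay at the start. CDKN1B, which encodes the cell cycle inhibitor p27, had 12, 14 and 17, but 37 of them at its end. GPR15, a receptor gene, was among the first 3 in WT_rePB and WT_rehyPB and had 16 positions at its start and 25 at its end in WT_rePB. In the 5 shallow groups together PALLD and GPR15 had 1 position each.

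EEF1A1, the gene for translation elongation factor 1 alpha, was first by rate in short_hyPB, sym_rehyPB and WT_PBat. In short_hyPB it had 6, 7 and 3 positions in the 3 libraries, of which 14 lay at its start and 2 at its end. In WT_PBat it had 8, 5 and 7, and all 20 lay at its end. The deep groups held both kinds, with 20 at the start and 11 at the end in WT_PB. EEF1A1 has many near-identical processed copies, and how reads with several matches were placed is not given in the sources used here.

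SLC38A2, an amino acid transporter gene, and VMP1, which encodes a membrane protein of autophagy, followed in WT_PBat. SLC38A2 had 6, 3 and 7 positions there, 14 of 16 at the end, and 1 position over all 12 short and symmetric libraries. VMP1 had 6, 3 and 4 in WT_PBat, 13 of 13 at the end, and in WT_PB 22 of 23 lay at the end as well. Of the other leading genes of the shallow groups, REM2 was hit at its end (12 of 12 in short_hyPB), and WNT2B, TDP1, RUFY3, PYM1 and the uncharacterised LOC124900416 were hit at their starts. At TDP1 and PYM1 no peak of the 5 shallow groups at the start was sense. H4C2 and H4C11 are histone genes shorter than 1 kb, so their start and end windows overlap. ANP32E led short_PB, with 4, 1 and 2 positions, and is a gene of unlisted strand.

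Gene families were described by the share of their genes with a position, without a test. Of the 63 ribosomal protein genes of listed strand, 25 (39.7%) had a position at the gene end in the 3 WT_PBat libraries together and 12.7% had one at the start. Over all 15100 genes the values were 4.26% and 6.06%. Per library the ribosomal gene end share was 26.5% ± 3.30 in WT_PBat, 3.17% ± 1.59 in short_PB and 5.29% ± 2.42 in short_hyPB (SD, n = 3 each). Single genes were counted at both coordinates together and without regard to listed strand. Among the 4 ribosomal genes with the most such positions in the deep libraries, RPL35A and RPL22L1 had 6 each in WT_PBat, RPS12 had 1 and RPL30 had none. Replication-dependent histone genes had a position at the end in 31.3% of cases and at the start in 17.2% in WT_PBat, again above all genes. For histone genes the end value was above the start value in every group, at 76.6% and 51.6% in WT_PB and 17.2% and 9.38% in short_hyPB. Where a gene is shorter than 1 kb, as H4C2 and H4C11 are, its start and end windows overlap. Many genes of both families have close copies, which the same limit on reads with several matches touches.

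**Figure D4:**
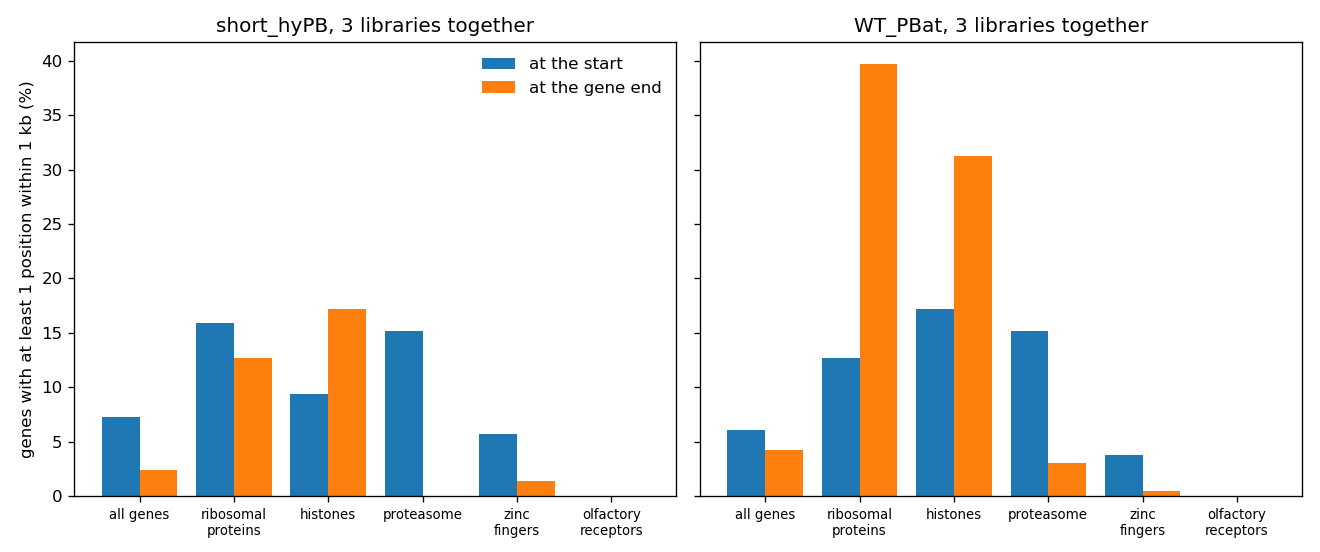
Percent of genes of each family with at least 1 position within 1 kb of the start (blue) or the gene end (orange), with the 3 libraries of short_hyPB (left) and of WT_PBat (right) pooled. Only genes of listed strand are counted. In WT_PBat ribosomal protein genes reach 39.7% at gene ends against 12.7% at starts, and olfactory receptor genes have none in either group.

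In the 12 deep libraries together the median coding gene had 9 positions and 87.0% of genes had at least 1. Ribosomal protein genes had a median of 29.5, histone genes 26, proteasome genes 21, DNA replication genes 16 and Wnt pathway genes 14. Zinc finger genes had 5, olfactory receptor genes, which act in the nasal epithelium, 1, and keratin-associated protein genes, which act in hair, 0. Genes of colon epithelium, among them CDX2 with 36 positions and EPCAM with 27, had a median of 8.5 over 12 genes, close to that of all genes. Markers of other cell types, among them PECAM1 with 21 positions and MBP with 16, had a median of 3 over 14 genes. Within the families single genes departed widely, such as OR51B5 with 86 positions and ZNF608 with 104. RFC4, a replication factor gene, had 109 and FZD7 and RNF43 of the Wnt pathway 76 each. No keratin-associated gene had a position in any of the 15 shallow libraries, and olfactory receptor genes had one in 1.54% of cases in the short and symmetric groups and in 0.51% in WT_PBat, against 18.1% and 9.52% of all genes.

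Genes hit at their ends by WT_PBat were short. Their median length was 13.9 kb over 644 genes, against 25.9 kb over all genes of listed strand and 30.8 kb over the genes hit at their ends in WT_PB. Genes hit at their starts in WT_PBat had a median of 33.5 kb. With genes shorter than 10000 bases left out, which are 27.8% of coding genes, WT_PBat had 2.94% ± 0.12 of its positions at gene ends and WT_PB 1.27% ± 0.032 (SD, n = 3 each), a setting chosen after the values were seen. Gene ends hit in short_hyPB and sym_rePB also belonged to shorter genes, with medians of 15.7 and 15.5 kb.

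Gene by gene, the deep groups were compared with limma, for genes with a mean of at least 5 positions per library. Values were log2 positions per 10000 positions that a library had near gene coordinates. Those made up a lower share of autosomal positions with re-engineering, at 4.38% in WT_rePB against 5.88% in WT_PB and 5.16% in WT_rehyPB against 6.13% in WT_hyPB. Log2 changes are therefore relative to the positions near gene coordinates and not to all positions of a library. Hyperactive transposase gave no call among 349 genes in either direction (0% called; 36 genes had an unadjusted p under 0.05). Re-engineering gave 1 higher gene (0.287% called) and no lower gene (0% called), with 55 at an unadjusted p under 0.05. That count rested on single libraries and on the window: limma called 2 higher and 5 lower genes without WT_rehyPB replicate 2, 1 higher and 2 lower without WT_hyPB replicate 3, 1 higher and 1 lower without WT_PB replicate 3 or WT_rePB replicate 2, and no higher and 5 lower with a window of 2000 bases. The gene called was DNASE2B, a gene for an acid DNase, where the log2 change was 0.96 ± 0.17 (SE, limma adjusted p = 0.0011). It had 3 to 5 positions per library in WT_PB, 5 to 7 in WT_hyPB, 6 to 11 in WT_rePB and 8 to 9 in WT_rehyPB, so that WT_hyPB and WT_rehyPB did not overlap. DNASE2B no longer passed when all genes with any position were tested (limma adjusted p = 0.0599) or with a window of 2000 bases (adjusted p = 0.117). In libraries of this size simulated with Poisson counts, 130 genes changed 2-fold reached the mean of 5 positions and were tested. The test recovered 84 of these 130, with 2 wrong calls. It recovered 115 of 116 tested genes changed 4-fold, with 4 wrong calls. Further changed genes fell below that mean in the simulated libraries, were not tested and are missing from both counts, so recovery among all changed genes was lower. Variation between libraries beyond Poisson counting was not simulated, so recovery in the real libraries may be lower.

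The rank of hit genes by breadth also differed. Single deep libraries hit 9176 to 11169 of the 19122 genes, and shallow ones 347 to 1038. The 100 genes with the most positions took 3.84% ± 0.11 of the positions near gene coordinates in WT_PB and 23.3% ± 1.79 in WT_PBat (SD, n = 3 each), a share that depends on the number of positions drawn. Just inside the window limit, at 901 to 1000 bases, there were 6665 positions in WT_PB and 315 in WT_PBat, and just outside, at 1001 to 1100 bases, 6355 and 284.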

How the data were processed

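Insertion positions came from 27 peak lists, 1 per library, as the authors deposited them, without headers. Per the submitters' processing notes, cutadapt 3.4, HISAT2 2.2.1.0, hg38 and GRCh38.p5 were named with no role, and the peak caller is not given in the sources used here. The deposited coverage signal is a sum per peak and a height, with no sign in the values of scaling to depth, and no listed height was under 5. A constant per file was taken as the library total, which no source states.

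A position is the first base of the 4-base target, from the 5′ edge of a peak. Positions were joined to RefSeq GRCh38.p14 gene coordinates, with strand from RefSeq's promoter table. Each position counted once per library at its nearest coordinate, within 1000 bases. Peaks gave orientation, so a position hit in both directions gave 2 peaks there.

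The 5 shares were compared by two-sided exact permutation within pairs of groups, with Benjamini-Hochberg adjustment over 30 tests and a threshold of 0.05. Genes were tested with limma 3.58.1 in R 4.3.3 on log2 of positions plus 0.5 per 10000 positions near gene coordinates, checked on simulated data. Other steps used Python 3.11.15 with pandas 2.3.3 and numpy 2.4.6. Alternatives were windows of 500 and 2000 bases, a height of at least 10, thinning to equal totals, the leaving out of crowded coordinates, of positions hit in both orientations, of short genes or of single libraries, linked libraries averaged, chromosome X added, a replicate block, and for genes other filters, a prior of 2, centring and every gene in reach. Named genes were those called by limma (at most 10 a direction), the 3 with most positions per group, the 10 most recurrent positions and at most 4 per list. Sequences were shown for promoter windows only. The members and lists were chosen with earlier results of these data known. Depth is the library total, and shares in small libraries carry counting error that the SD over 3 libraries includes.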

Additional observations from a re-analysis of the deposited data

Results flagged for a closer look

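Size of an effect differed between the pairs of groups that share it in 6 results, each with an exact permutation test of the residuals around the shared effect, adjusted over 20 tests. Hyperactive transposase raised the share of positions near either gene coordinate by 0.24 points with the wild-type transposon, by 0.78 with re-engineered transposase, by 3.29 with the short transposon and by 0.39 with the symmetric one, a range of 3.04 points (exact permutation, adjusted p = 0.0058). For the start share alone the range was 2.17 points, from 0.085 to 2.25 (exact permutation, adjusted p = 0.0105). The short transposon differed between piggyBac and hyperactive piggyBac by the same 3.04 points in the share near either coordinate and 2.17 points in the start share (exact permutation, adjusted p = 0.0167 for both), since these differences use the same 4 groups. Re-engineering lowered the share near either coordinate by 0.54 points more without than with the hyperactive form, and the start share by 0.46 points more (exact permutation, adjusted p = 0.0167 for both). Groups of 3 libraries are too small for a search for outlying libraries.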

How the results depend on the processing

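With libraries thinned to the smallest total, the short-transposon difference became −1.05 points in the share near either coordinate, −1.24 in the start share, 13.4 in the sense share at starts and −8.32 at gene ends, and its gene end share fell below the threshold at 0.47. The symmetric transposon then gave 0.048 (gene end share), 10.6 and −11.8 (sense shares at starts and gene ends), piggyBat against WT_PB −1.14 (start share) and 17.1 (sense at starts), hyperactive transposase 0.19 (gene end share), 1.62 and 1.35 (sense at starts and gene ends), and re-engineering 0.0094 (gene end share). Thinning leaves few positions at the low totals. With a height of at least 10, hyperactive effects were 0.93, 0.64 and 0.31 on the shares near either coordinate, starts and gene ends, all short of the threshold, and the sense difference at gene ends was 6.81. That setting gave re-engineering 0.014 (gene end share), the symmetric transposon 0.97 and −13.5 (sense at starts and gene ends), piggyBat against WT_PB 1.76 (sense at starts) and the short transposon −1.50 (sense at gene ends). A window of 2000 bases gave 0.18 (hyperactive) and 0.037 (re-engineering) for the gene end share, 0.53 (hyperactive), −1.40 (short) and 0.52 (piggyBat against WT_PB) for sense at starts, and −0.76 (short) and −2.00 (symmetric) for sense at gene ends. A window of 500 gave −0.17 (start share, piggyBat against short_PB), 0.57 (hyperactive), −0.58 (re-engineering), −12.2 (symmetric, past the threshold) and −0.12 (piggyBat against short_PB) for sense at starts, and 0.98 (re-engineering) for sense at gene ends. Without crowded coordinates re-engineering gave 0.018 (gene end share) and the short transposon −0.65 (sense at gene ends). Without positions hit in both orientations piggyBat against WT_PB gave 0.29 (sense at starts) and the short transposon −0.098 (sense at gene ends). Without genes under 10000 bases, chosen after seeing the data, the gene end share gave 0.077 (hyperactive), 0.029 (re-engineering) and 0.21 (short), and re-engineering 0.56 (sense at gene ends). The causes were not tested.

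Replicate numbers did not pair libraries (correlations of same-numbered deviations −0.13 to 0.012 over 18 pairs). With a replicate block the values stay the same by construction, and every called 2-pair effect, and the hyperactive gene end share of 0.21, reached an exact permutation adjusted p of 0.0721: −1.23, 5.85 and 8.42 points (share near either coordinate), −1.03, 4.18 and 6.02 (start share), 0.63 and 0.92 (gene end share), −5.15 (sense at starts) and 1.17 (sense at gene ends). With 2 pairs the blocked exact permutation cannot give an unadjusted p below 0.03125, and each of these 2-pair effects stood at that floor. Their loss of the threshold therefore does not show a dependence on the block.

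Leaving out 1 library gave −0.017 to 0.0070 for re-engineering (gene end share), −0.75 to 1.01 for hyperactive and −6.06 to −2.54 for the symmetric transposon (sense at starts), and 1.04 to 1.34 for re-engineering and −0.82 to 1.45 for the short transposon (sense at gene ends). Genes called for re-engineering ranged from 1 to 7, with 7 without WT_rehyPB replicate 2, 3 without WT_hyPB replicate 3, and 2 without WT_PB replicate 3 or WT_rePB replicate 2. They numbered 0 with no filter beyond 1 position, 5 with a window of 2000 and 0 with a height of at least 10, where DNASE2B was not tested. DNASE2B changed by 0.96 with no filter and 0.58 with a window of 2000 (log2). Adding chromosome X or averaging linked libraries changed no call. Symmetric libraries hold as few as 28 peaks beyond gene ends, which limits their orientation shares.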
